A study of Mus musculus with 15 samples.

Results

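The Hox genes of the Hoxa, Hoxb, Hoxc and Hoxd clusters were followed through 2 RNA-seq experiments on loss of Hmga1 in mouse embryonic stem cells (ESC). Every gene symbol made of Hox, the letter of a cluster and a number was taken, which gave 39 of the 21662 genes counted, 11 in Hoxa, 10 in Hoxb, 9 in Hoxc and 9 in Hoxd. The KO experiment has 9 samples, 3 of the parental wild-type line (WT), 2 of the Hmga1 KO line and 2 from each of its Hmga1 and Hmga2 add-backs, and the full-deletion experiment has 3 samples of wild type (WT_2) and 3 of the Hmga1 full deletion. The question put to the Hox genes is whether their transcript levels differ between cells with and without Hmga1, an abundant chromatin protein that binds the minor groove of AT-rich DNA.

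All lines are ESC of a mixed 129Sv-C57Bl/6 background, grown with serum and LIF on feeder cells or on gelatine, and which of these surfaces each sample came from was not stated. The parental line carries the biotin ligase BirA under the CAG promoter. In the Hmga1 KO line Cas9 cutting shifted the reading frame of Hmga1, so that its RNA is still made. The Hmga1 and Hmga2 add-backs are KO cells in which a tagged cDNA of the named gene was inserted at a defined site under the CAG promoter. In the Hmga1 full deletion further guides removed the whole coding sequence of Hmga1. Each genotype is 1 line, the KO and full-deletion lines being single clones, and its samples are separate cultures, so that p-values measure the spread between cultures of single lines and not between independently made lines.

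Hox genes encode homeodomain transcription factors that give the embryo its positions from head to tail. Within a cluster they lie in the order in which they are switched on, with low-numbered (anterior) genes coming on early and in front and high-numbered (posterior) genes late and behind. In ESC the clusters are held silent by Polycomb complexes, which mark their chromatin with trimethylated H3K27, and retinoic acid and Cdx factors open them during differentiation. TALE proteins of the Pbx, Meis and Pknox families bind DNA together with Hox proteins.

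The sequence these genes share is the homeobox, and the part that encodes the third helix, which reads the DNA, shows how alike the members are and how well short reads can tell them apart. Of the members with enough counts for a test, 5 are given here over 30 bases of that stretch, on the sense strand of the NCBIM37 (mm9) assembly, with capitals at the 16 positions where all 36 members with 1 match of the search motif carry the same base. The motif searched was TGGTTNCANAANNGNNGN on the strand of the gene, and it fixes 11 of those 16 positions by itself.
Hoxa7, chr6:52165857-52165886, minus strand: AagaTcTGGTTcCAgAAtcGgcGcaTgAAg
Hoxb9, chr11:96136108-96136137, plus strand: AaaaTcTGGTTtCAgAAccGgcGgaTgAAa
Hoxb13, chr11:96057469-96057498, plus strand: AccaTcTGGTTtCAgAAccGccGggTcAAg
Hoxc13, chr15:102757776-102757805, plus strand: AccaTcTGGTTcCAgAAtcGacGcgTgAAa
Hoxd13, chr2:74508122-74508151, plus strand: AccaTtTGGTTtCAgAAtcGaaGggTgAAg
All of these lie in an exon of the gene. Hoxa7 carries the same 30 bases as Hoxa6 and Hoxb4. The motif occurs in a protein-coding transcript of 146 of 22611 genes (0.646%), and all 39 members are among them. Over whole transcripts the members remain distinct, since 29 of 39 have no exact match of 47 bases, the length of the aligned reads, elsewhere in the genome, and the largest share of exonic bases with such a match is 5.23% (Hoxc9). It is 1.67% in Hoxa7, 2.45% in Hoxb9 and less in the other tested members.

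The 4 clusters are compact and poor in AT. Hoxa covers chromosome 6 from 52105366 to 52210874, Hoxb chromosome 11 from 96055630 to 96229570, Hoxc chromosome 15 from 102751534 to 102867274 and Hoxd chromosome 2 from 74506367 to 74603200 (NCBIM37). Their AT content is 49.99%, 51.1%, 50.9% and 50.6%, against 58.2% over the assembly. The median member has 47.9% AT over the gene, against a median of 54.4% over 22202 protein-coding genes, and all 39 members lie below that median. Of the members, 22 have promoter windows in the RefSeq table for GRCm38.p6, 24 windows from 250 bases before to 50 bases after the start of a transcript. Their median GC content is 57.7%, against 52.7% over all 32851 windows, and their median ratio of observed to expected CpG is 0.626, against 0.384. The motif TATAAA on either strand is in 4 of these windows (16.7%), against 13.6% of all windows.

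Counts on genes summed to between 13465399 and 34952136 per sample in the KO experiment and between 14832310 and 21708492 in the full-deletion experiment. Levels are given as CPM, counts scaled to a common library size after TMM normalisation within each experiment, so that values of WT and WT_2 are set side by side only. In the KO experiment the letters a and b are batches of samples handled together, and WT c is alone in its batch. Hmga1 RNA stood at 464, 276 and 220 CPM in the 3 WT samples, at 217 and 96.0 CPM in both KO samples, at 184 and 123 CPM in the Hmga1 add-back, which is within the range of KO, at 138 and 101 CPM in the Hmga2 add-back, and at 10.9 to 12.3 CPM in the full deletion against 310 to 356 CPM in WT_2. These are RNA values. By the study's Western blots, Hmga1 protein was absent in the KO and full-deletion lines and was back near the WT level in the Hmga1 add-back. Hmga2 RNA stood at 248.9 and 221.8 CPM in the Hmga2 add-back and at 12.8 to 23.8 CPM in all other samples. The normalisation factor of WT_2 b was 0.752, and those of the other samples lay between 0.930 and 1.12. In bulk RNA fewer cells that carry a transcript and less of it per cell cannot be told apart.

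Hox transcripts were rare in every group. The 39 members together took 3394 of 330160482 counts over the 15 samples, or 10.3 CPM of the pooled counts. No member was at 0 in all samples, but 24 members had fewer than 30 counts in total and 27 never had more than 10 counts in any sample. The 5 members with the most counts, among them Hoxc13, Hoxb9, Hoxd13 and Hoxc4, held 2377 (70.0%). The tested genes, those with a mean count of at least 10, include 7 members in the KO experiment (among them Hoxa7, Hoxb9, Hoxb13, Hoxc4, Hoxc13 and Hoxd13) and 4 in the full-deletion experiment (among them Hoxb9, Hoxc13 and Hoxd13). The other members fell below this minimum, where differences are harder to detect, and are described by counts and ranges. A fit without the minimum is given further on.

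**Figure D1:**
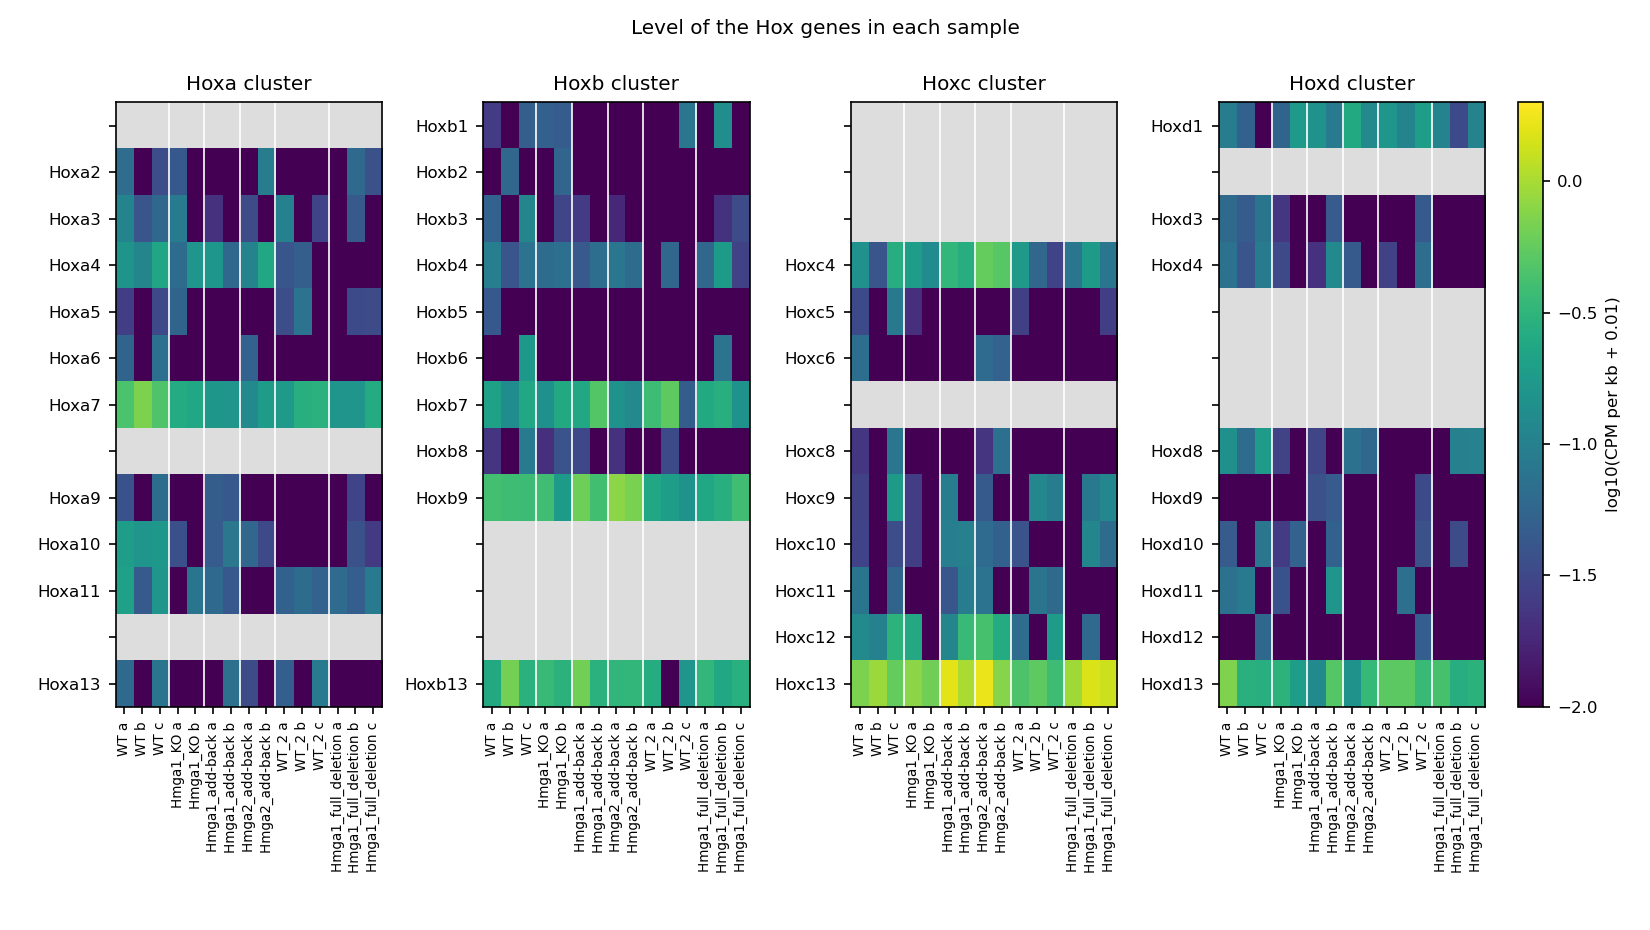
Level of the Hox genes (rows by gene number, a block for each cluster) in each of the 15 samples (columns), as log10 of CPM per kilobase of exon with a small offset. Grey marks numbers with no gene in that cluster or not shown. Hoxc13 is among the highest members shown in every sample, with Hoxd13 above it in WT a and WT_2 a and Hoxb7 in WT_2 b, while most members stay near 0.

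The members that gave counts were spread over the clusters and were not the anterior genes alone. Per kilobase of exon and over all 15 samples, Hoxc13 had the highest mean level (0.912 CPM per kb), and others with a high level were Hoxb9 (0.373), Hoxd13 (0.345), Hoxb13 (0.306), Hoxa7 (0.262), Hoxb7 (0.231) and Hoxc4 (0.194). The 12 members of paralogue groups 1 to 4, the anterior genes, had 1233 counts or 41.9 per kb, the 15 members of groups 5 to 9 had 752 or 26.2 per kb, and the 12 members of groups 10 to 13, the posterior genes, had 1409 or 65.2 per kb. These sums pool raw counts of samples of unequal depth, and few members set them. Of the posterior counts, 790 were on Hoxc13, 277 on Hoxd13 and 138 on Hoxb13. In Hoxb, Hoxc and Hoxd 1 gene held most of the counts. Hoxb9 had 51.8% of the 699 counts of Hoxb, Hoxc13 71.8% of the 1101 of Hoxc and Hoxd13 62.7% of the 442 of Hoxd.

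Before groups are compared, the libraries WT a and WT c have to be set apart, because they carry counts on genes that ESC are not known to use. Olfactory receptor genes, which serve smell in nasal neurons, were taken as a measure of such counts. Of 1093 of them, 61.0% had at least 1 count in WT a and 53.3% in WT c, against 2.65% in WT b and 0.823% to 8.14% in all other samples. Of 317 vomeronasal receptor genes, 69.4% and 74.4% had counts in WT a and WT c, against 9.15% in WT b. Per kilobase, the olfactory receptor genes held 1.09 and 1.11 counts in WT a and WT c, against 0.0243 to 0.163 in the other 13 samples. WT a and WT c thus stand apart from WT b and from both add-backs, KO, WT_2 and the full deletion in these counts.

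The same libraries had the most Hox genes with a count. There were 35 members with at least 1 count in WT a and 33 in WT c, against 20 in WT b and 11 to 26 in the other samples. Scaled down to the smallest total, the expected numbers were 28.0, 29.4 and 20.0 in WT a, c and b, so the gap remained after scaling. The 32 members that were not tested had 120 counts in WT a and 119 in WT c, where the rate of the olfactory receptor genes per kilobase would give 69.4 and 70.6, or ratios of 1.73 and 1.69. In WT b they had 21 counts, against 3.44 at that rate, a ratio of 6.11. The 7 tested members had 274 and 156 counts in WT a and WT c against 17.4 and 17.7 at that rate, so that for them the background was a small part of the count. As a sum, the untested members of WT a and WT c were thus less than 2 times the level on olfactory receptor genes, although 6 of them in WT a and 8 in WT c had at least 3 counts and more than 3 times that level. WT values of untested members are given here with WT b beside them or with the olfactory receptor rate subtracted. The ratios depend on the list taken as background, most of all in WT b. Per kilobase, all 39 members stood at 4.54, 28.1 and 3.11 times the olfactory receptor genes in WT a, b and c. They stood at 4.11, 9.53 and 2.46 times the vomeronasal receptor genes and at 3.18, 2.93 and 1.62 times the beta-defensin genes. In WT b the beta-defensin rate rests on 10 counts on 2 of 42 genes.

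**Figure D2:**
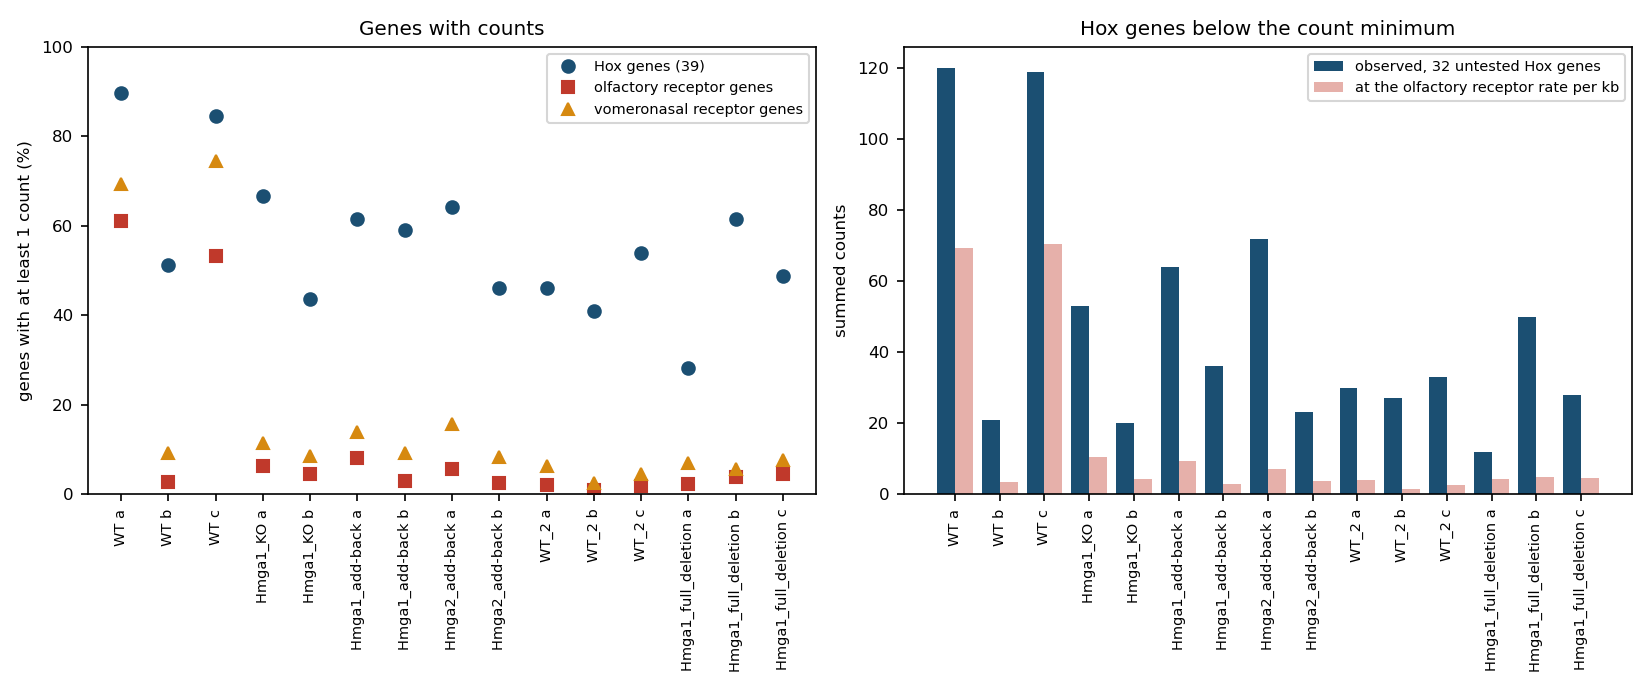
Left, percent of Hox, olfactory receptor and vomeronasal receptor genes with at least 1 count in each sample, and right, summed counts of the 32 untested Hox genes beside those expected at the olfactory receptor rate. WT a and WT c stand at 61.0% and 53.3% of olfactory receptor genes, above all other samples, and their 120 and 119 counts on the untested Hox genes compare with 69.4 and 70.6 expected.

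Feeder fibroblasts, which carry Hox transcripts themselves, could add to these levels, and their markers were read beside them. The summed level of the 18 fibroblast genes listed was 46.3, 19.3 and 42.4 CPM in WT a, b and c, against 13.7 to 34.8 CPM in the other 12 samples. The place of WT a and WT c above all other samples rests on Pdgfra, a receptor also made by primitive endoderm. Pdgfra had 775, 88 and 565 counts in WT a, b and c. Without it the other 17 genes summed to 12.5 to 21.8 CPM in the WT samples, below the 28.5 and 29.0 CPM of the Hmga1 and Hmga2 add-back a, and to 9.68 to 20.0 CPM in the remaining samples. Thy1, a surface protein of fibroblasts and other cells, was highest in the same add-back samples, with 378 and 395 counts against 190, 34 and 81 in WT a, b and c. The collagen gene Col3a1 had 16, 0 and 18 counts in WT and at most 2 elsewhere. Tbx15 had 49, 12 and 51 counts in WT a, b and c, against 0 to 32 elsewhere, and Twist1 40, 10 and 26, against 5 to 21. Their highest levels were 2.12 CPM in WT c (Tbx15) and 1.26 CPM in WT a (Twist1). Col1a1, Col6a1, Col6a2, Pdgfrb and Prrx2 were, like Thy1, highest in the Hmga1 or Hmga2 add-back a. Of the fibroblast matrix genes, Dcn and Lum had 4 counts each in WT c, Postn had 2 in WT a and Lum 1 in full-deletion a, and all were at 0 in the other samples. The olfactory receptor rate, 1.09 and 1.11 counts per kilobase in WT a and WT c, was not subtracted from these fibroblast counts. Col3a1 has 7988 exonic bases, Lum 2075, Dcn 2084, Postn 3295, Tbx15 3567 and Twist1 1630. Background at that rate would fall on each of them. The part of fibroblasts in the Hox counts was not tested.

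In Hoxa, Hoxa7, a gene of trunk patterning, had its highest levels in WT. It had 28, 18 and 22 counts in WT a, b and c (0.885, 1.40 and 0.913 CPM), 18 and 6 in Hmga1 KO (0.505 and 0.456 CPM), 11 and 4 with Hmga1 added back (0.316 and 0.2998 CPM) and 8 and 5 with Hmga2 added back (0.237 and 0.352 CPM). All 3 WT samples lay above all 6 samples of the KO line and its add-backs. The mean and SD were 1.06 ± 0.287 CPM for WT (n = 3) and 0.480 ± 0.0346 for KO (n = 2), and with the olfactory receptor rate subtracted 1.01 ± 0.329 and 0.471 ± 0.0352 CPM. In WT_2 Hoxa7 had 7, 9 and 12 counts and in the full deletion 5, 7 and 11, so that in this experiment the groups overlapped and WT_2 itself was at 0.487 ± 0.135 CPM, near the level of the KO line.

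Some markers of endoderm and neural cells were also lower in KO than in WT, and none of them was called. The 6 endoderm genes listed summed to 43.4, 19.5 and 27.4 CPM in WT a, b and c, 6.81 and 16.1 in KO, 11.9 and 25.9 with Hmga1 added back, 10.3 to 15.4 with Hmga2 added back, 5.41 to 5.88 in WT_2 and 6.73 to 7.95 in the full deletion, with counts for every gene in all samples of the KO experiment. In KO against WT 4 of the 6 had an unadjusted edgeR p under 0.05, beside 12.6% of 13912 genes, and none passed a rule for a call. These 4 had log2 fold changes of -2.39 for Gata6, -2.42 for Sox17, -2.06 for Sox7 and -1.19 for Gata4 (edgeR adjusted p = 0.296, 0.382, 0.313 and 0.393). Of the 8 neural genes listed 4 were tested, and Sox1 (-1.37) and Pax6 (-0.96) had such a p (edgeR adjusted p = 0.197 and 0.371), while the summed level of this list overlapped between WT (148 to 177 CPM) and KO (119 and 169 CPM). An unadjusted p under 0.05 was also found for 3 of 10 tested fibroblast genes and 1 of 6 tested streak and mesoderm genes, all lower, and for 1 of 10 pluripotency genes, which was higher. These counts are to be set beside the same 12.6% of all genes. The part of such cells in the levels of Hoxa7 was not tested.

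The 9 members of Hoxa below the minimum for a test held few counts. Hoxa4, an anterior gene, had 7, 2 and 8 counts in WT a, b and c, 1 to 8 in the other samples of the KO experiment, and 1, 1 and 0 in WT_2 against 0 in each sample of the full deletion. For each full-deletion sample a count of 0 allows up to 3 counts, or 0.181, 0.129 and 0.136 CPM in a, b and c, a limit that covers counting error only. Hoxa10, a gene of the uterus and lumbar region that is named here after its values were seen, had 18, 6 and 12 counts in WT, 3 and 0 in KO, 4 and 3 with Hmga1 added back, 5 and 1 with Hmga2 added back, 0 in each WT_2 sample and 0, 2 and 1 in the full deletion. With the olfactory receptor rate subtracted, the WT samples of Hoxa10 stood at 0.461, 0.452 and 0.353 CPM, above the KO samples (0.0698 and -0.0157 CPM). WT b, the library with little background, was as high as WT a for this gene, while WT_2 was at 0. Hoxa11, also named after its values were seen, had 14, 1 and 8 counts in WT a, b and c, against 0 to 4 in every other sample. With the olfactory receptor rate subtracted, Hoxa11 stood at 0.365, 0.0682 and 0.229 CPM in WT a, b and c, so that in the libraries with background most of its level remained.

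In Hoxb the leading members were Hoxb9, Hoxb13 and Hoxb7. Hoxb9, a gene of the thoracic skeleton, had 34, 13 and 24 counts in WT (1.07, 1.01 and 0.996 CPM), 37 and 6 in KO (1.04 and 0.456 CPM), 57 and 14 with Hmga1 added back (1.64 and 1.05 CPM) and 72 and 26 with Hmga2 added back (2.13 and 1.83 CPM). Both Hmga2 add-back samples lay above every other sample of the KO experiment. In WT_2 Hoxb9 had 13, 8 and 8 counts (0.617, 0.490 and 0.385 CPM) and in the full deletion 10, 17 and 23 (0.604, 0.734 and 1.04 CPM), so that these groups overlapped. The group means of Hoxb9 were 1.03 ± 0.0425 CPM in WT, 0.747 ± 0.411 in KO, 1.34 ± 0.415 with Hmga1 added back and 1.98 ± 0.213 with Hmga2 added back.

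Hoxb13, the most posterior member of its cluster and known from the tail bud and prostate, had 10, 11 and 9 counts in WT, 16 and 5 in KO, 29 and 5 with Hmga1 added back and 14 and 6 with Hmga2 added back. It had 7, 0 and 4 counts in WT_2 and 7, 7 and 8 in the full deletion. Between batches Hoxb13 went opposite ways, at 142% of WT in KO a and 44.5% of WT in KO b. Hoxb7 had 1 to 11 counts per sample. In the GENCODE annotation 26.2% of its 4084 exonic bases are shared on the same strand with Hoxb8, but its counts rest on a shorter model of 1269 bases. Whether the counted bases are shared was not tested. The lowest members of all were Hoxb2 and Hoxb5, with 2 counts each over the 15 samples.

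In Hoxc the leading members were Hoxc13, Hoxc4 and Hoxc12. Hoxc13, which drives keratin genes in hair and nail, had 53, 28 and 33 counts in WT (1.68, 2.171 and 1.37 CPM), 68 and 20 in KO (1.91 and 1.52 CPM), 135 and 33 with Hmga1 added back (3.87 and 2.47 CPM) and 141 and 26 with Hmga2 added back (4.17 and 1.83 CPM). In WT_2 it had 23, 21 and 19 counts (1.09, 1.29 and 0.915 CPM) and in the full deletion 37, 82 and 71 (2.24, 3.54 and 3.22 CPM). The KO samples lay within the range of WT, the Hmga1 add-back samples lay above it, and every full-deletion sample lay above every WT_2 sample. The means were 1.10 ± 0.186 CPM in WT_2 and 3.0 ± 0.680 in the full deletion (SD, n = 3 each).

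Hoxc4, an anterior gene of the neck, had 11, 1 and 16 counts in WT a, b and c (0.348, 0.0775 and 0.664 CPM), 17 and 4 in KO (0.477 and 0.304 CPM), 29 and 9 with Hmga1 added back (0.832 and 0.674 CPM) and 49 and 18 with Hmga2 added back (1.45 and 1.27 CPM). The Hmga2 add-back lay above all other groups, and the Hmga1 add-back above WT and KO. WT b rests on 1 count, the fewest in the KO experiment. In WT_2 Hoxc4 had 9, 2 and 1 counts and in the full deletion 3, 10 and 4, which overlap. Hoxc12, a posterior gene, had 12 and 3 counts in the Hmga2 add-back and 0 to 7 in the other samples.

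In Hoxd the leading members were Hoxd13, Hoxd1 and Hoxd8. Hoxd13, a gene of digits and genitalia, had 56, 9 and 16 counts in WT (1.77, 0.698 and 0.664 CPM), 26 and 6 in KO (0.729 and 0.456 CPM), 10 and 16 with Hmga1 added back (0.287 and 1.20 CPM) and 12 and 12 with Hmga2 added back (0.355 and 0.845 CPM). WT a stood alone above the rest, and the other samples of the 4 groups overlapped. In WT_2 it had 27, 21 and 18 counts (1.28, 1.29 and 0.867 CPM) and in the full deletion 17, 15 and 16 (1.03, 0.647 and 0.727 CPM). Hoxd1, an anterior gene, had 0 to 15 counts per sample, with its highest value in Hmga2 add-back a. Hoxd8, a trunk gene, had 6, 1 and 6 counts in WT, 0 to 3 in the other samples and 0 in each WT_2 sample.

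**Figure D3:**
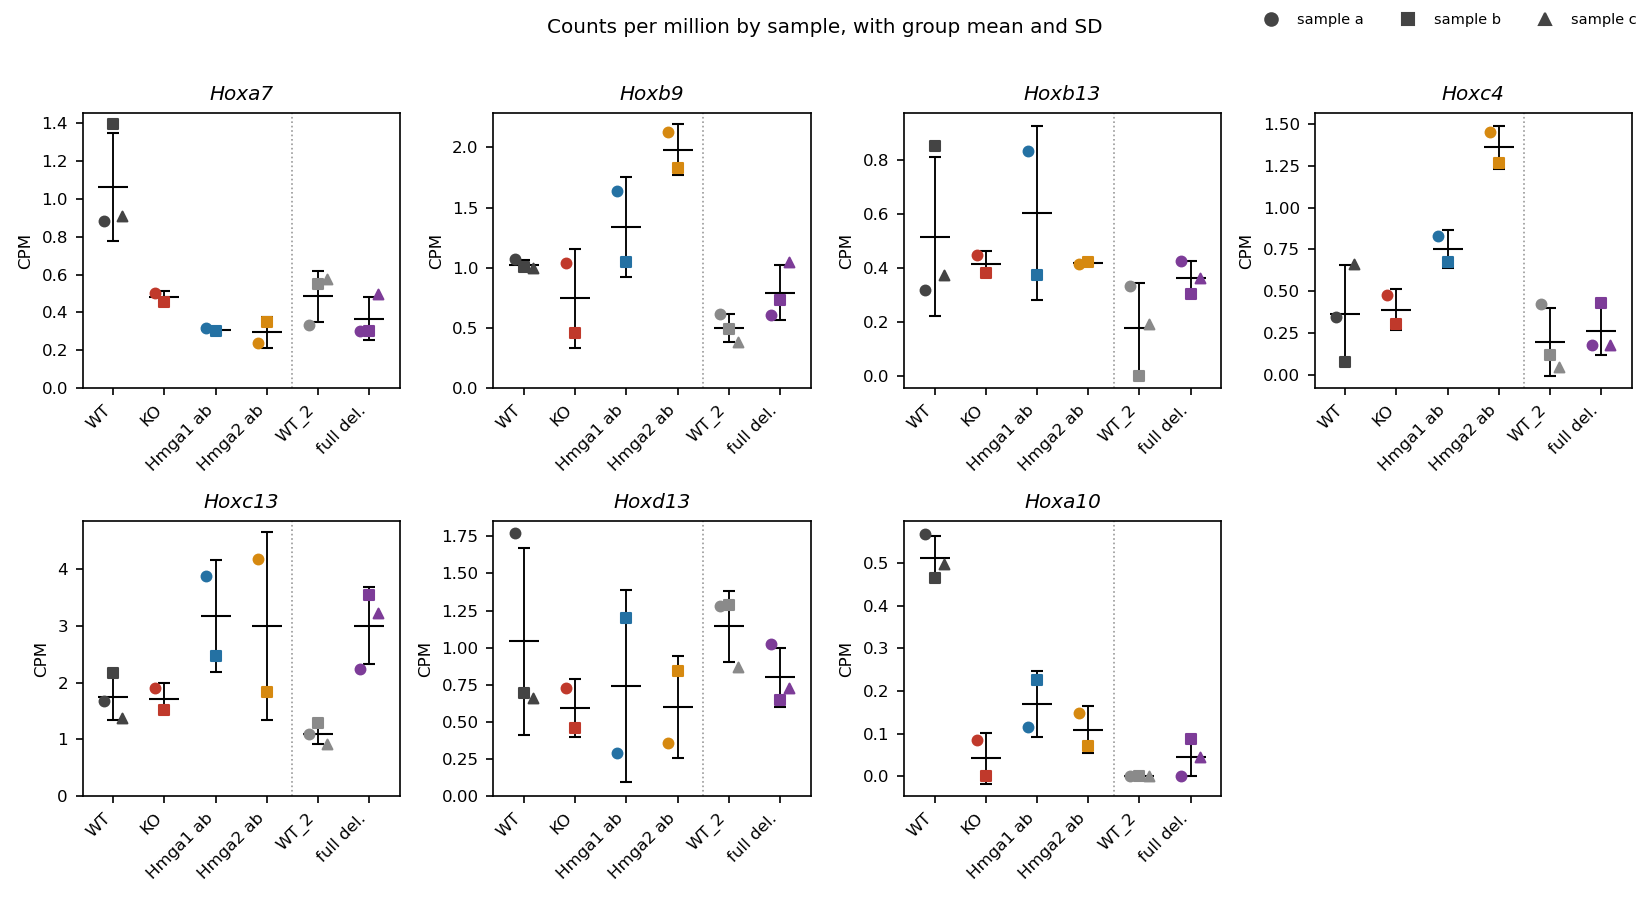
CPM of 6 tested Hox genes and of Hoxa10 in each sample, with a point for each sample (its letter gives the replicate) and bars for the group mean ± SD. A dotted line separates the KO experiment from the full-deletion experiment, and Hoxc13 shows full-deletion samples at 2.24 to 3.54 CPM above WT_2 at 0.915 to 1.29 CPM.

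Summed levels were also read for each cluster. Hoxc stood at 2.60 ± 0.378 CPM in WT, 2.24 ± 0.595 in KO, 4.39 ± 1.02 with Hmga1 added back and 4.95 ± 1.92 with Hmga2 added back, and at 1.54 ± 0.206 in WT_2 against 3.49 ± 0.971 in the full deletion. Hoxa stood at 4.33, 3.22, 3.30 and 2.94 CPM in the 4 groups of the KO experiment, and with the olfactory receptor rate subtracted WT was at 3.72 ± 0.741, against 3.11 ± 0.690 in KO. Hoxd stood at 1.82 ± 0.743 CPM in WT and 0.923 ± 0.123 in KO, and at 1.25 ± 0.615 and 0.827 ± 0.129 after the same subtraction. In the full-deletion experiment Hoxd was at 1.61 ± 0.0771 CPM in WT_2 and 1.04 ± 0.173 in the full deletion. After TMM the samples of these groups did not overlap (1.53 to 1.69 against 0.863 to 1.21 CPM). Scaled by summed counts alone they did, at 1.60, 1.15 and 1.66 CPM in WT_2 a, b and c against 1.35, 0.948 and 1.16 CPM. Hoxb stood at 2.34, 1.75, 2.56 and 2.75 CPM in the KO experiment and at 1.18 and 1.79 CPM in WT_2 and the full deletion. In each cluster the subtraction moved the mean of WT more than that of any other group.

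**Figure D4:**
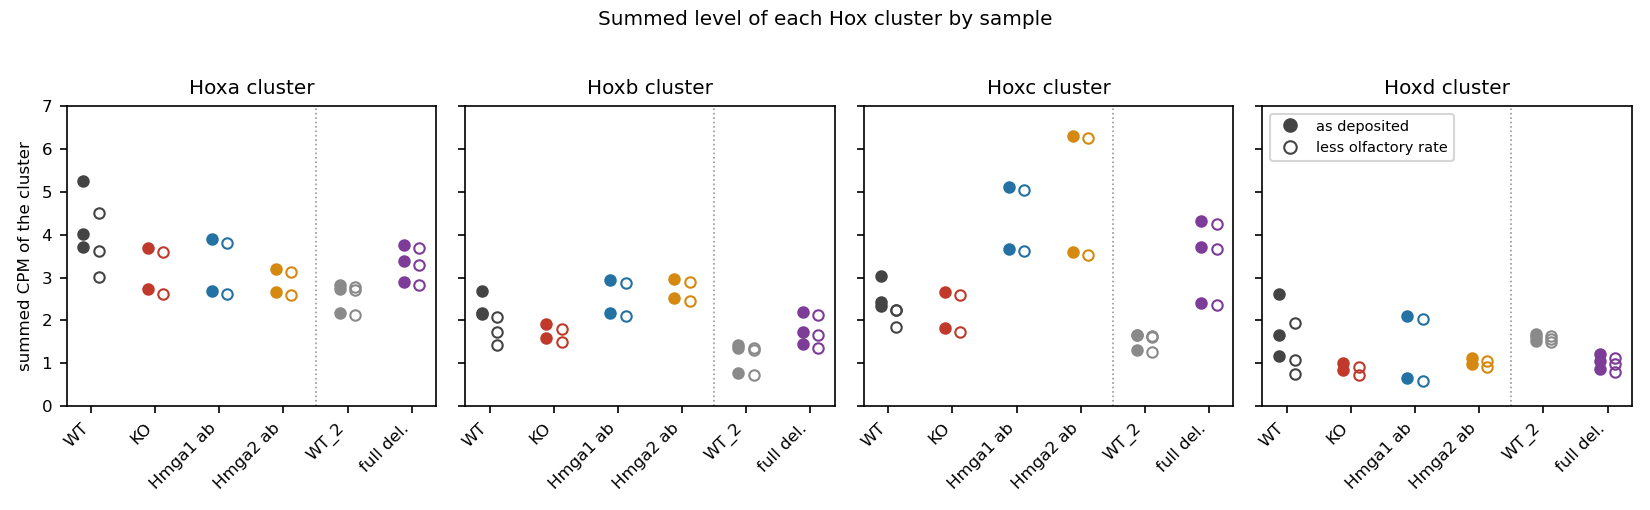
Summed CPM of each Hox cluster in each sample. Filled points are CPM from the deposited counts with nothing subtracted, and open points have the olfactory receptor rate subtracted. The open and filled points part in WT a and WT c, and in Hoxc the full deletion (mean 3.49 CPM) lies above WT_2 (mean 1.54 CPM).

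For the tests, counts were fitted by the quasi-likelihood method of edgeR, and the KO experiment had a batch term. The strict rule for a call asked for a change of at least 2-fold whose adjusted p was below 0.01, and the relaxed rule for an adjusted p below 0.05 whatever the fold change. Since WT c is alone in its batch, it adds nothing to the comparisons with WT, which rest on batches a and b. The comparisons of KO and of both add-backs with WT share the same WT samples, and the add-backs derive from the KO line.

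Between Hmga1 KO and WT, no member was called by edgeR under either rule, against 0.0216% of 13912 genes under the strict rule and 0.0647% under the relaxed rule. At an unadjusted p under 0.05 edgeR had 1 of 7 tested members, against 12.6% of all genes, DESeq2 had 0 and limma-trend 1. That member was Hoxa7, at a log2 fold change of -1.13 ± 0.43 (SE; edgeR adjusted p = 0.356). Batch a had it at 57.0% of WT and batch b at 32.7%. Hoxd13 had a log2 fold change of -1.07 ± 0.72 (edgeR adjusted p = 0.571) and Hoxc4 of 0.71 ± 0.57 (edgeR adjusted p = 0.629). Batch a had Hoxd13 at 41.2% of WT and batch b at 65.3% (6 against 9 counts). Without both WT a and WT c the fitted value of Hoxd13, which draws on all groups through the batch term, was 0.45, while Hoxa7 stood at -1.45 (edgeR adjusted p = 0.763). Hoxc13, Hoxb9 and Hoxb13 had log2 fold changes of -0.16, -0.41 and -0.28. The median over the 7 tested members was -0.28, against -0.01 over all genes tested, 5 members being lower and 2 higher.

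Without the filter on low counts all 39 members entered this comparison, and 2 had an unadjusted edgeR p under 0.05, against 9.92% of all genes. The lowest adjusted p was 0.286. It belonged to Hoxa10 by edgeR, at a log2 fold change of -3.07, which rests on 3 counts in the KO samples. The same fit had 2 of 39 members under 0.05 in the Hmga1 add-back against WT (10.3% of all genes), 6 in the Hmga2 add-back against WT (13.1%), and 1 and 2 in the Hmga1 and Hmga2 add-backs against KO (2.36% and 4.2%). The 6 members were Hoxc4, Hoxa7, Hoxa11, Hoxa10, Hoxb9 and Hoxd3, with a lowest edgeR adjusted p of 0.0785 for Hoxc4. In the full deletion it had 2 of 34 members (29.7% of all genes), and for the difference between the effects of KO and full deletion 3 of 39 (13.7%).

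Between the Hmga1 add-back and WT, no member was called by edgeR under either rule, against 0.0144% and 0.0431% of genes. At an unadjusted p under 0.05 there were 2 of 7 members (13.3% of all genes), 1 by DESeq2 and 2 by limma-trend. Hoxa7 had a log2 fold change of -1.77 ± 0.46 (SE; edgeR adjusted p = 0.201), at 35.7% and 21.5% of WT in batches a and b. Hoxc4 had a value of 1.62 ± 0.53 (edgeR adjusted p = 0.289) and Hoxc13 of 0.73 ± 0.39 (edgeR adjusted p = 0.453). In the Hmga1 add-back both samples of Hoxa7 lay below both KO samples, a difference that did not pass the test (log2 fold change -0.64 ± 0.49, edgeR adjusted p = 1). The 7 members had a median of 0.35, against 0.00 over all genes.

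Between the Hmga2 add-back and WT, no member was called by edgeR under either rule, against 0.0647% and 0.165% of genes. At an unadjusted p under 0.05 there were 3 of 7 members (16.9% of all genes), 2 by DESeq2 and 3 by limma-trend. Hoxc4 had the largest log2 fold change, 2.48 ± 0.51 (SE; edgeR adjusted p = 0.106). WT b holds 1 count of Hoxc4, and with 1 sample left out at a time the value ran from 2.10 to 3.87. Hoxc4 was at 417% of WT in batch a (49 against 11 counts) and at 1634% in batch b (18 against 1). With only the compared groups in the fit, its adjusted p by edgeR was 0.0434, without WT b it was 0.0438, and over 17 alternatives it ran from 0.0434 to 0.608. Hoxa7 had a log2 fold change of -1.94 ± 0.47 (edgeR adjusted p = 0.134), at 26.8% and 25.2% of WT in batches a and b, and Hoxb9 a value of 0.94 ± 0.38 (edgeR adjusted p = 0.271), at 198% and 182% of WT. Batch a had Hoxc13 at 249% of WT and batch b at 84.3%, so its direction differed between batches. The median of the 7 members was 0.06, against 0.00 over all genes.

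Between the Hmga1 add-back and KO, no member was called by edgeR under either rule (0% of all genes under each), and none had an unadjusted p under 0.05 by edgeR, DESeq2 or limma-trend, against 2.8% of all genes by edgeR. The smallest p-values were those of Hoxc13, with a log2 fold change of 0.89 ± 0.39 (SE; edgeR adjusted p = 1), Hoxb9 (0.80 ± 0.40) and Hoxc4 (0.91 ± 0.49). The median of the 7 members was 0.63, against 0.01 over all genes, with 5 higher and 2 lower.

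Between the Hmga2 add-back and KO, no member was called by edgeR under either rule, against 0.00719% and 0.0144% of genes. At an unadjusted p under 0.05 there were 2 of 7 members (5.09% of all genes), the same number by DESeq2 and by limma-trend. These were Hoxc4, with a log2 fold change of 1.77 ± 0.47 (SE; edgeR adjusted p = 0.877), and Hoxb9, with 1.36 ± 0.39 (edgeR adjusted p = 0.877). Hoxc4 was at 304% and 417% of KO in batches a and b and Hoxb9 at 205% and 401%. Hoxc13 had a log2 fold change of 0.80 ± 0.39 (edgeR adjusted p = 0.877). The median of the 7 members was -0.02, against 0.00 over all genes.

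In the full deletion Hoxc13 was the member that moved. Its log2 fold change against WT_2 was 1.47 ± 0.27 (SE, n = 3 against 3; edgeR adjusted p = 0.0312), which passes the relaxed rule and misses the strict one. Under the relaxed rule 1 of the 4 tested members was called, against 8.25% of 13098 genes, and under the strict rule 0, against 0.0687%. At an unadjusted p under 0.05 there were 2 of 4 by edgeR, 1 by DESeq2 and 2 by limma-trend, beside 37% of all genes by edgeR, so that many genes of this comparison share such a p-value. The DESeq2 Wald test called Hoxc13 under the strict rule (adjusted p = 0.000518), as did edgeR without WT_2 b (adjusted p = 0.000264), settings in which 463 and 362 genes were called in place of 9. Over 12 alternatives the log2 fold change of Hoxc13 ran from 1.32 to 1.76 and its adjusted p from 0.000264 to 0.16, with 7 of them under 0.05. Without full-deletion a, b or c the edgeR adjusted p was 0.129, 0.130 and 0.160, and without WT_2 c it was 0.0761.

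The other tested members did not pass in the full deletion. Hoxb9 had a log2 fold change of 0.68 ± 0.36 (SE; edgeR adjusted p = 0.205) and Hoxd13 of -0.53 ± 0.32 (edgeR adjusted p = 0.253). The median of the 4 members was 0.65, against 0.04 over all genes, with 3 higher and 1 lower.

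The 2 lines without Hmga1 were also compared in their change from their own wild type, in a joint fit of all 15 samples in which 6 members passed the filter on counts. No member was called by edgeR for a difference between the effect of KO and that of the full deletion, against 0.0951% of 13671 genes under the strict rule and 0.307% under the relaxed rule. At an unadjusted p under 0.05 there was 1 member (18.4% of all genes), 1 by DESeq2 and 2 by limma-trend. That member was Hoxc13, for which the effect of KO minus that of the full deletion was -1.60 ± 0.50 on the log2 scale (SE; edgeR adjusted p = 0.201). Hoxb9 and Hoxa7 followed with -1.08 ± 0.54 (edgeR adjusted p = 0.3) and -0.74 ± 0.60 (edgeR adjusted p = 0.491). The median of the 6 members was -0.64, against -0.04 over all genes.

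**Figure D5:**
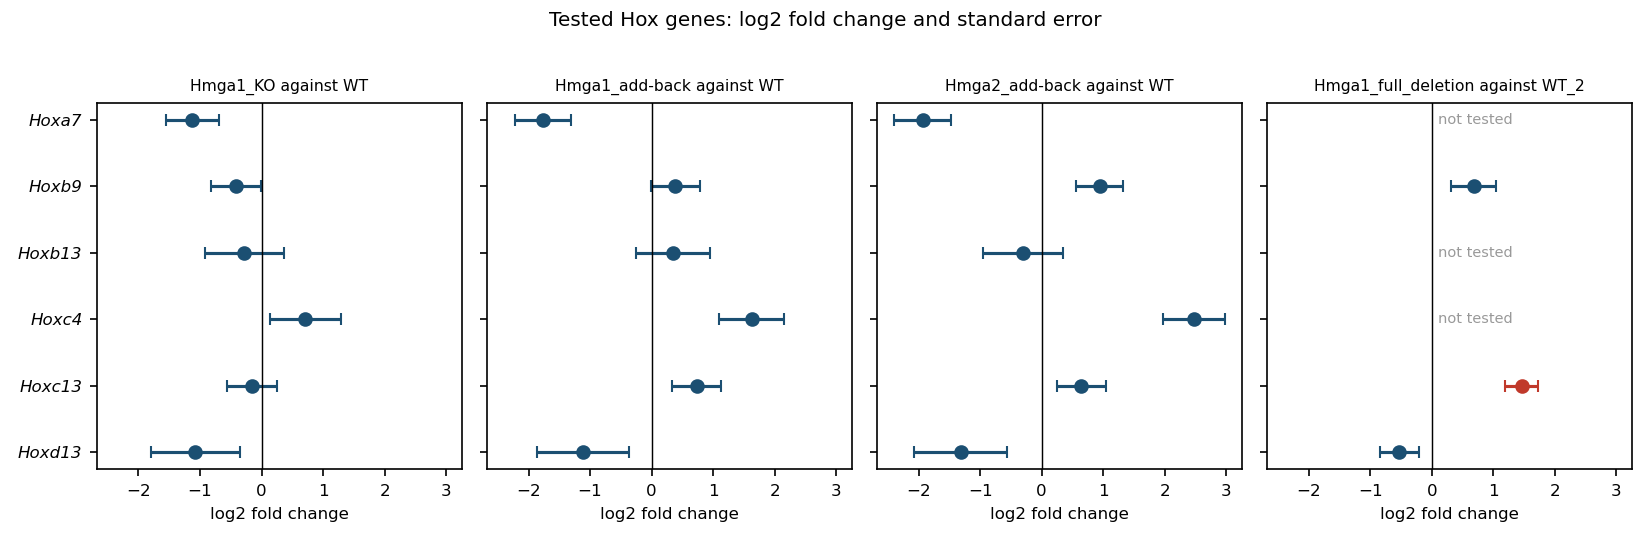
Log2 fold change ± SE (edgeR) of 6 tested Hox genes in KO and both add-backs against WT and in the full deletion against WT_2. The red point is Hoxc13 in the full deletion (1.47 ± 0.27), the only value with an adjusted p under 0.05, and Hoxa7 lies below 0 in the 3 comparisons with WT (-1.13, -1.77 and -1.94).

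The factors that work on or with the Hox clusters were read from lists chosen by their function. In the 5 comparisons of the KO experiment none of the tested genes of these lists was called by edgeR under the relaxed rule, neither the 9 TALE partners, nor 14 of 19 retinoic acid pathway genes tested, nor 29 of 30 Polycomb genes, nor 9 Trithorax and H3K27 demethylase genes, nor 11 of 14 neighbours of the clusters. Unadjusted p-values under 0.05 in KO against WT were found in 1 TALE gene, 4 retinoic acid genes, 4 Polycomb genes, no Trithorax gene and 1 neighbour, beside the 12.6% of all genes. Of the Cdx and ParaHox genes, regulators and relatives of Hox genes, only Cdx1 was tested, with a log2 fold change of -1.39 in KO against WT (edgeR adjusted p = 0.326). The 8 listed non-coding RNAs of the clusters were too low to be tested, with summed counts of 0 to 5 per sample.

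In the full deletion 5 of the 29 tested Polycomb genes passed the relaxed rule, beside the 8.25% of all genes. Phf19, Phc2 and Scmh1 were higher, with log2 fold changes of 1.13, 0.87 and 0.57 (edgeR adjusted p = 0.0175, 0.0309 and 0.0444), and Eed and Rnf2 were lower, with -0.997 and -0.79 (edgeR adjusted p = 0.0474 and 0.0404). Eed is a core subunit of the complex that methylates H3K27, Rnf2 the ubiquitin ligase of the other Polycomb complex, and Phf19 a factor that brings the methylating complex to DNA. Of the 11 tested neighbours only Snx10, near Hoxa, passed, with 0.59 (edgeR adjusted p = 0.0337). The TALE, retinoic acid, Trithorax and Cdx lists had no call there. Evx1, the homeobox gene beside the posterior end of Hoxa, had 18, 0 and 14 counts in WT a, b and c, against 0 to 4 elsewhere. The olfactory receptor rate would give Evx1 3.14 and 3.19 counts in WT a and WT c. Evx2, its partner beside Hoxd, was at 0 in all samples.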

How the data were processed

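Stranded libraries were made after ribosomal RNA depletion and read as single ends of 50 bases. The deposited values are raw counts per gene. By the study's methods, the authors cut 3 bases off the 5′ end of reads and mapped them with QuasR (bowtie) to mm9. A limit of 100 alignments per read was set. Multi-mapping reads within it were placed at 1 random position, and reads on the strand of a UCSC known gene were counted. The submitters' processing notes also name bcl2fastq 2.17. The authors tested with limma-trend. Here the counts were normalised with TMM and fitted with edgeR 4.0.16 (quasi-likelihood, R 4.3.3) on genes averaging 10 counts or more, and p-values were adjusted by the Benjamini-Hochberg method over every tested gene, separately in the KO experiment (batch letter as a term, WT c then absorbed) and the full-deletion experiment (no such term), and jointly for the difference. Deviations from the group mean of same-lettered samples correlated at 0.319 to 0.758 over 6 pairs of groups in the KO experiment, where the study names the letters as batches.

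CPM per kilobase uses the exonic length given in the files. Background was read from 1093 olfactory receptor, 317 vomeronasal receptor and 42 beta-defensin genes, and a background level is the count per kilobase of the olfactory receptor genes times the length of the gene. A count of 0 was taken to allow up to 3 counts, which covers counting error only. Homeobox stretches came from NCBIM37 with its GENCODE annotation, promoters from RefSeq, and exact 47-base matches from blastn 2.17.0. The edgeR fits of KO against WT and of the full deletion against WT_2 were tested on simulated data. The other comparisons, DESeq2 and limma-trend were not.

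Named with values are, per comparison, members called under either rule and the 3 with the smallest p, and per cluster the 3 highest per kilobase. A member and a sequence that the rules would include are not reported here. Exceptions are said to be chosen after their values were seen. The members, the lists and the rules were chosen with earlier results of these data known. Alternatives were DESeq2 1.42.0, limma-trend (limma 3.58.1, prior count 2), other scalings and filters on counts, the batch term, only the compared groups, an adjusted p under 0.05, and leaving out each sample. Leaving out both WT a and WT c was added after seeing the data.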

Additional observations from a re-analysis of the deposited data

How the results depend on the processing

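Of 131 recomputed counts of members called, 128 gave 0 and 3 gave 1. Those 3 were all Hoxc13 in the full deletion, under the DESeq2 Wald test (1 member; 463 genes called in all), without WT_2 b (1 member; 362 genes) and under the relaxed rule (1 member; 1080 genes), against 9 genes by edgeR under the strict rule. Leaving out 1 sample at a time gave 0 to 1 members there and 0 in the other comparisons. Apart from a rerun of the main fits under the relaxed rule, these counts used the strict rule. An adjusted p under 0.05 was also reached by Hoxc4 in the Hmga2 add-back against WT, in 2 of 17 alternatives. Hoxc13 reached it in the full deletion in 7 of 12. No fit of the full deletion with a mean count of at least 50 had a member left to test. In that experiment the letters did not pair the samples, with correlations of -0.0546 to 0.0703, and with the replicate block 0 members were called and Hoxc13 had a log2 fold change of 1.44 (edgeR adjusted p = 0.0516). Without the block in the KO experiment 0 members were called, too.

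For 38 log2 fold changes of single members, 617 recomputed values kept their direction and their side of the strict rule. Another 2 newly passed it, both Hoxc13 in the full deletion (by DESeq2 and without WT_2 b). A further 29, none with an adjusted p under 0.576, changed sign. The cause was not tested. Without both WT a and WT c, Hoxd13 stood at 0.45 in KO and at 0.26 and 0.10 in the Hmga1 and Hmga2 add-backs, and Hoxb13 at -0.70 in the Hmga1 add-back, all against WT. Without the block, Hoxc13 in KO stood at 0.011, Hoxd13 in the Hmga1 add-back against KO at 0.12 and the difference for Hoxc4 at -0.33. Hoxd13 in the Hmga1 add-back against KO was 0.11 by DESeq2 and 0.059 by limma-trend, and Hoxb13 in the Hmga2 add-back against KO was 0.015 by limma-trend and 0.034 with summed counts. Leaving out 1 sample at a time, Hoxd13 ranged from -1.89 to 0.45 (KO), -2.28 to 0.26 (Hmga1 add-back) and -2.13 to 0.11 (Hmga2 add-back) against WT, from -1.22 to 1.14 and -0.82 to 0.53 in these add-backs against KO, and from -1.36 to 0.996 for the difference. Hoxb13 ranged from -1.32 to 0.57, -0.69 to 1.20 and -1.33 to 0.56 against WT and from -0.15 to 0.20 in the Hmga2 add-back against KO. Hoxc13 in KO against WT ranged from -0.76 to 0.34 and the difference for Hoxc4 from -0.95 to 1.73. In KO against WT, Hoxd13 stood at 0.45 without WT a and Hoxc13 at 0.34 without WT b.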
